A study of Mus musculus with 9 samples.

Results

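Anterior lens capsule from aged mice on epigallocatechin gallate (EGCG), the main catechin in green tea, was compared with that of young control mice by RNA sequencing. The comparison used 6 of the 9 libraries of the study, the 3 aged EGCG and the 3 young control libraries, and every gene row of the deposited counts, of which 13711 of 17527 were tested. The capsule is the basement membrane that encloses the lens, and its anterior part carries the lens epithelium. The other 3 libraries, from aged control mice, entered the fit and are given as levels beside some of the main values. Young control and aged EGCG groups differed in both age and treatment, so age and EGCG cannot be told apart in this comparison. The sources used here do not give ages, strain, sex, dose, route or duration. They also do not say whether the 3 libraries of each group stand for separate animals, so p-values reflect only the spread among these samples, which may be technical.

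The lens grows throughout life. Its epithelial cells divide, leave the cell cycle near the equator, elongate into fibre cells, fill with crystallins and then break down their nuclei and organelles. α-crystallins are small heat shock proteins that hold damaged proteins in solution, β-crystallins are structural proteins, and the γ-crystallins Cryga to Crygf are made in young fibre cells, while Crygs is made later in fibre life. Fibre cells of the centre are never replaced, which is why damage to their proteins is thought to build up with age into cataract.

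The 6 libraries held between 13184169 and 14828151 counts. Levels are CPM, that is, counts relative to the total of the library after correction by its TMM factor, and fold changes are on the log2 scale, EGCG minus young control, with 95% intervals. A gene was called when edgeR's adjusted p was under 0.05. Of the genes tested, 63.6% were called, 4424 higher (32.3%) and 4301 lower (31.4%) in EGCG. Among calls of 2-fold or more, 671 genes were higher (4.89%) and 1986 lower (14.5%). In 68.3% of genes the EGCG and young control libraries did not overlap. For part of the genes named below, no overlap was a condition of naming. The split between higher and lower calls depended on scaling. It was 3098 higher and 5575 lower with library size as the only scaling, 5384 and 3091 with the trend on gene length removed, and 3131 and 5622 with limma on log2(FPKM + 1). The median log2 fold change of all genes was −0.02 in the comparison as reported and −0.21, 0.14 and −0.13 under these settings. In 3992 genes (29.1%), called or not, the interval lay within 1.5-fold in either direction. Lens RNA was abundant in both groups, with Cryaa, αA-crystallin, alone at 10.1% to 10.5% of the counts of EGCG and 7.95% to 8.11% of those of young control libraries. The label names the anterior capsule only, but γ-crystallin transcripts of fibre cells and rod photoreceptor markers were also present, at higher shares in young control than in EGCG libraries (values further on).

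**Figure D1:**
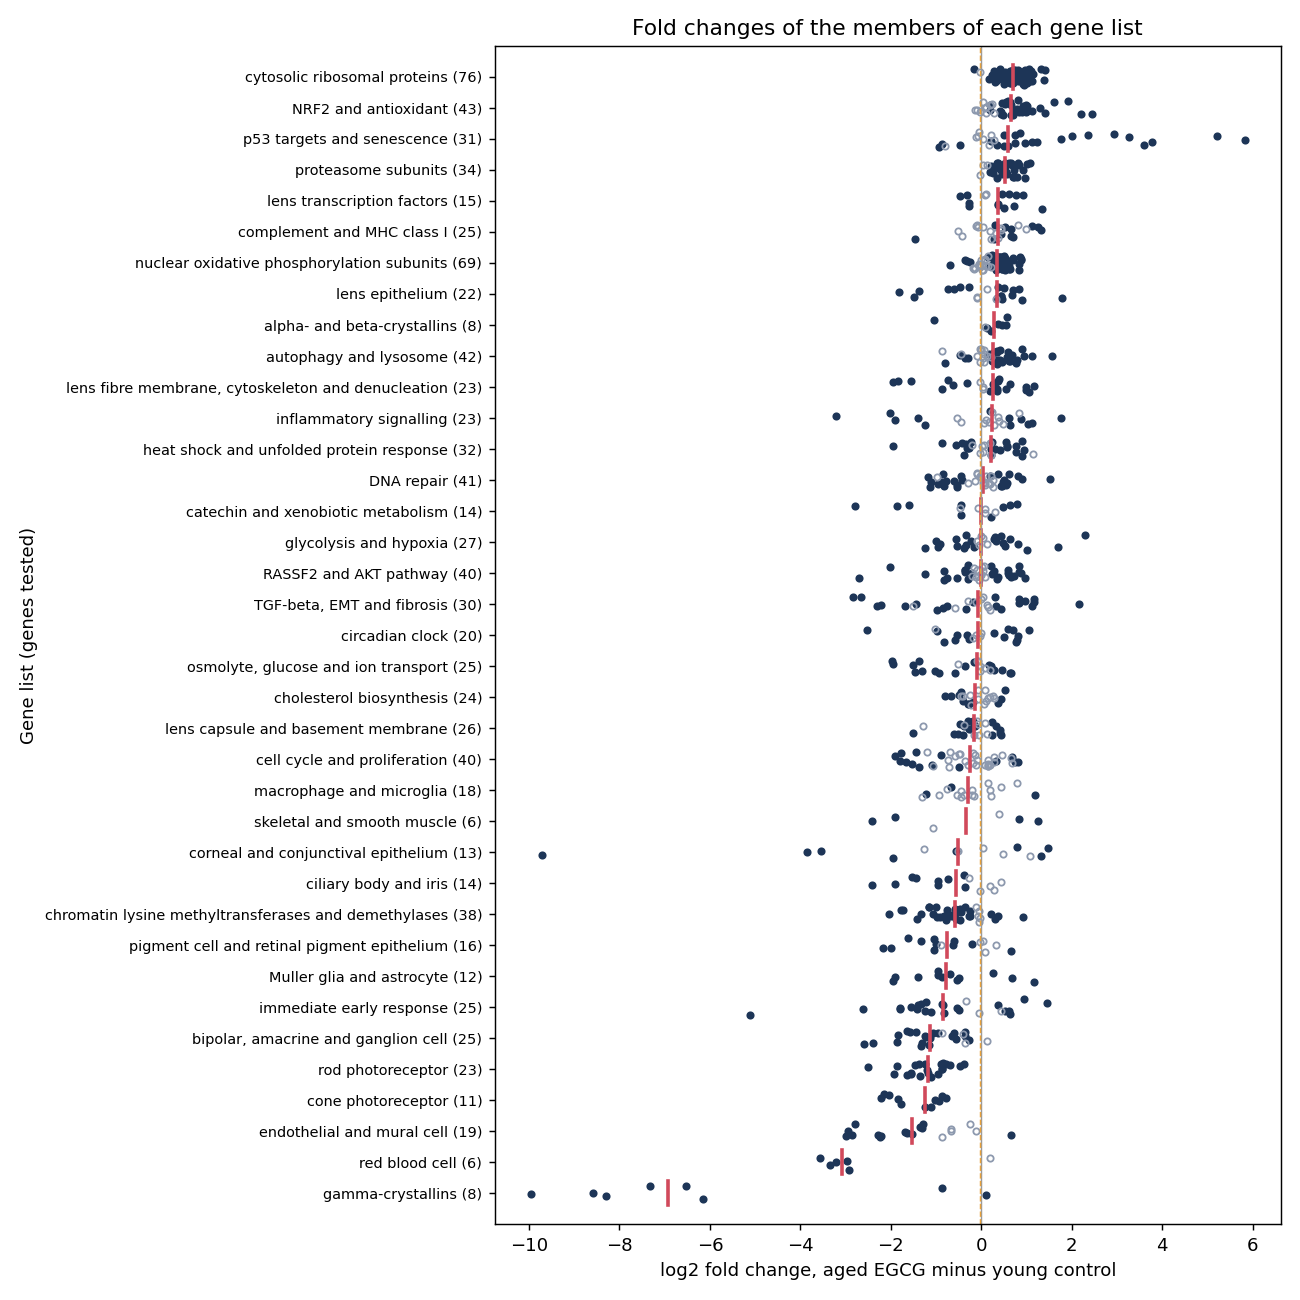
The log2 fold change (horizontal axis, aged EGCG minus young control) of every tested member of each gene list (vertical axis, with the number of genes tested). Filled points passed the test and open points did not, red bars are list medians and the dashed line is the median of all genes. The γ-crystallin list has the lowest median (−6.92) and the cytosolic ribosomal protein list the highest (0.70). The leftmost corneal point is Muc4, with 0 counts in EGCG, whose fitted position is no bound.

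The γ-crystallins of young fibre cells were far lower in EGCG. Each of the 6 genes from Cryga to Crygf fell 71.7-fold or more, whereas Crygn fell 1.82-fold and Crygs differed by 1.08-fold. Cryga, Crygb, Crygc, Crygd and Cryge lie side by side on the minus strand of chromosome 1 (GRCm38, GENCODE annotation), with Crygb at 65080219 to 65082288, and Crygf lies further along the plus strand at 65926520 to 65928307. Crygs is on chromosome 16, at 22805203 to 22811577, and Crygn is on chromosome 5, at 24751003 to 24758008. To show what the 6 genes that fell together share, the stretch from 90 to 13 bases before the RefSeq start site is printed for 5 of them, with the strings TTTGTG and TATATA in capitals (a T-A run in Cryga and Crygb holds TATATA more than once). Both are read on the gene's strand, and both were chosen because the 6 genes share them. The stretches come from RefSeq on GRCm38.p6 and lie at chr1:65103376-65103453 for Cryga, chr1:65082303-65082380 for Crygb, chr1:65063453-65063530 for Crygd and chr1:65051176-65051253 for Cryge, all on the minus strand, and at chr1:65926432-65926509 on the plus strand for Crygf.
Cryga: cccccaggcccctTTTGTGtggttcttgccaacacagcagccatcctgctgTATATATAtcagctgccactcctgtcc
Crygb: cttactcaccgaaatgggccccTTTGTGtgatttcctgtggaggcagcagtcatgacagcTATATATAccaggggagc
Crygd: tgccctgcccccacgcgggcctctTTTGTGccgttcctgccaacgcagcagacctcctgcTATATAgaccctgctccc
Cryge: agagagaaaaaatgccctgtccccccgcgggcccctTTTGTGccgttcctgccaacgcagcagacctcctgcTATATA
Crygf: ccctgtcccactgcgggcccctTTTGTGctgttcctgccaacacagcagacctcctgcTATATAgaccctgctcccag
The distance from the first base of TTTGTG to the first base of TATATA ran from 35 to 38 bases in the 6 genes. Of 32851 promoter windows in the table, 2.97% hold TTTGTG on the gene's strand and 6.03% on either strand, 2.20% hold TATATA, which reads the same on both strands, and 6 windows (0.0183%), those of these 6 genes, hold both at this distance. The window of Crygs holds neither string and that of Crygn holds TATATA only. The range of distances, like the strings, was taken from these 6 genes, so the count of windows with both was partly set by that choice. The windows searched here end at the start site. These matches describe letters and not bound sites.

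Crygb, γB-crystallin, had 13316, 13632 and 13410 CPM in the young control and 87.2, 91.2 and 73.9 CPM in the EGCG libraries. The groups lay far apart, and the 3 libraries of each lay close together. Its log2 fold change was −7.32 (−7.43 to −7.21, adjusted p = 3.9e-55), which is 160-fold lower. Crygd had 8898, 9312 and 8863 CPM in young control and 104, 99.2 and 90.2 CPM in EGCG libraries, a log2 fold change of −6.53. Crygc had 8661, 8696 and 8520 CPM in young control and 112, 123 and 125 CPM in EGCG libraries, a log2 fold change of −6.16. In both genes every EGCG library was lower than every young control library by a wide margin. Aged control means of the same genes were 135 CPM for Crygb, 131 CPM for Crygd and 180 CPM for Crygc, and each was higher than in EGCG (EGCG minus aged control −0.68, −0.42 and −0.58, with adjusted p-values of 6e-16, 4.7e-09 and 2.7e-13).

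Cryga, Cryge and Crygf had between 0 and 9 counts in any EGCG library. Cryga had 1221, 1315 and 1233 counts in young control and 0, 3 and 5 counts in EGCG libraries. Cryge had 2044, 1656 and 1587 counts in young control and 3, 2 and 9 in EGCG libraries, and Crygf had 2425, 2476 and 2508 against 5, 1 and 0. The young control libraries of all 3 genes were well above any EGCG library. Summed over the libraries of a group and scaled, the ratio of young control to EGCG was 403 for Cryga (204 to 934, exact 95% interval of counting error only), 323 for Cryge (192 to 591) and 1056 for Crygf (485 to 2878). Reads of these genes can be shared. Of the 50-base stretches of its transcripts, 48.3% of those of Cryge occur in another γ-crystallin, 32.2% of those of Crygf, 29.6% of those of Crygd and 29.4% of those of Crygb, so the split of counts among them is uncertain. Together, Cryga to Crygf took 3.52% to 3.57% of the counts of a young control library and 0.0287% to 0.0309% of those of an EGCG library.

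Crygn and Crygs, whose transcripts share no 50-base stretch with another γ-crystallin, had a different size of change. Crygn had 77.8, 77.2 and 77.7 CPM in young control and 42.8, 44.8 and 40 CPM in EGCG libraries, a log2 fold change of −0.87 (−1.01 to −0.72), with all EGCG libraries below all young control libraries. Crygs, γS-crystallin, had 22068, 22874 and 22071 CPM in young control and 24966, 23769 and 23357 CPM in EGCG libraries. The EGCG libraries lay just above the young control ones, with a log2 fold change of 0.11 that turned to −0.09 with library size only and to −0.11 with the length trend removed.

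**Figure D2:**
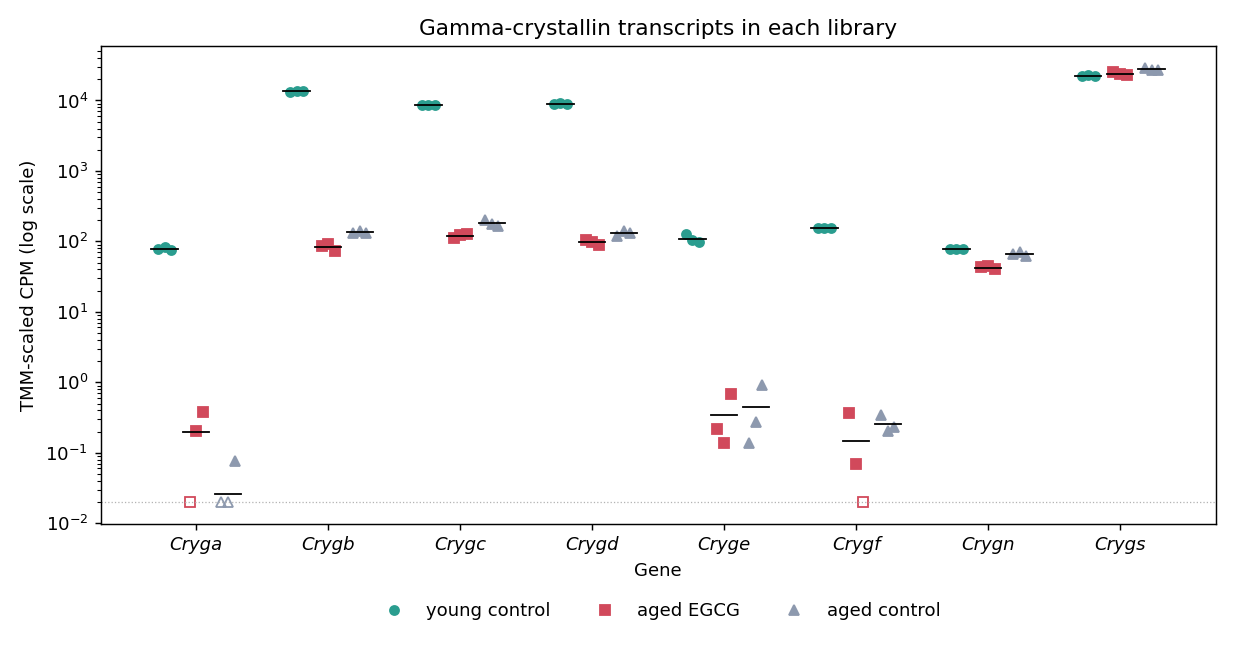
TMM-scaled CPM (log axis) of the 8 γ-crystallin genes in each of the 9 libraries. Bars are group means and open symbols on the dotted line mark libraries with 0 counts. EGCG libraries of Crygb lie between 73.9 and 91.2 CPM and young control libraries at 13316 CPM or more, whereas the groups lie close together for Crygs.

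The α- and β-crystallins had a different direction. Of 8 genes tested, 6 were higher and 1 lower in EGCG with a median log2 fold change of 0.29. Over all genes tested, 32.3% were higher and 31.4% lower. Library size as the only scaling gave 4 higher and 3 lower (median 0.10), as did removal of the length trend (median 0.08). Cryaa, the chaperone αA-crystallin, had 70383, 72548 and 71111 CPM in young control and 103136, 106803 and 105790 CPM in EGCG libraries, a log2 fold change of 0.56 (0.50 to 0.62). Crybb2, βB2-crystallin, rose by 0.54 and Cryab, αB-crystallin, by 0.45. Crybb3 fell by 1.04 (chromosome 5, 113075839 to 113081584), from 8112, 8314 and 8093 CPM to 4080, 3996 and 3864 CPM. EGCG libraries were thus all above the young control libraries for Cryaa and all below them for Crybb3.

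Markers of neural retina were lower in EGCG than in young control libraries, and the young control libraries held the most of them. All 23 rod photoreceptor markers tested were lower (median −1.17), against 31.4% of all genes tested, and none was at 0. Their summed share of counts was 3.07% to 3.10% in young control, 1.22% to 1.23% in EGCG and 0.159% to 0.171% in aged control libraries. All 11 cone markers (median −1.24) and 21 of 25 markers of bipolar, amacrine and ganglion cells (median −1.12) were also lower. Rp1, a microtubule protein of photoreceptor outer segments, had 590, 586 and 563 CPM in young control and 106, 99.6 and 100.2 CPM in EGCG libraries, a log2 fold change of −2.51 with no overlap. In bulk tissue, fewer cells of a type and less RNA per cell cannot be told apart. The part of retinal RNA in the results below was not tested.

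Marker lists of other cell types of the eye went in different directions. Their counts are given beside the 32.3% higher and 31.4% lower of all genes tested. Among 19 markers of endothelial and mural cells, 13 were lower and 1 higher (median −1.52), with 0.0285% to 0.0301% of the counts in young control and 0.0155% to 0.0162% in EGCG libraries. Kdr, a VEGF receptor of endothelium (−2.23), and Rgs5, of pericytes (−2.98), were among them. Of 6 red blood cell genes, 5 were lower (median −3.08). Hbb-bs, a β-globin, had 103, 102 and 102 CPM in young control and 8.71, 9.87 and 7.21 CPM in EGCG libraries, although globin copies share reads and their split is uncertain. Of 16 pigment cell and retinal pigment epithelium markers, 10 were lower and 1, Trpm3 (0.66), was higher, and their summed share stood at 0.0977% to 0.102% in young control and 0.0989% to 0.101% in EGCG libraries. Of 14 ciliary body and iris markers 9 were lower, with a summed share of 0.0230% to 0.0242% in young control and 0.0119% to 0.0123% in EGCG libraries. Of 12 Müller glia and astrocyte markers 9 were lower and 3 higher. The higher ones included Vim, also on the TGF-β, EMT and fibrosis list, and Dkk3, also on the lens epithelium list. The summed share of the Müller glia list was higher in EGCG, at 0.871% to 0.895% against 0.688% to 0.691% in young control libraries. Of 13 corneal and conjunctival markers, 5 were lower and 3 higher, and the summed share of the list was 0.0167% to 0.0177% in young control and 0.0273% to 0.0301% in EGCG libraries. Muc4, a surface mucin, had 347 counts over the young control and 0 over the EGCG libraries, at least 98.9-fold lower against a floor of 3 counts over the group. Krt5, a basal keratin, had 5.87, 5.67 and 4.46 CPM against 0.659, 0.411 and 0, whereas Perp and Krt15 rose by 1.48 and 1.32. Of 18 macrophage markers 1 was higher and 2 lower, and the 1 lymphocyte and neutrophil marker tested was not called. Of 6 muscle genes 2 were higher and 2 lower, and the summed share of that list was 0.0356% to 0.0370% in young control and 0.0514% to 0.0549% in EGCG libraries. Y-linked genes were present in all 9 libraries.

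**Figure D3:**
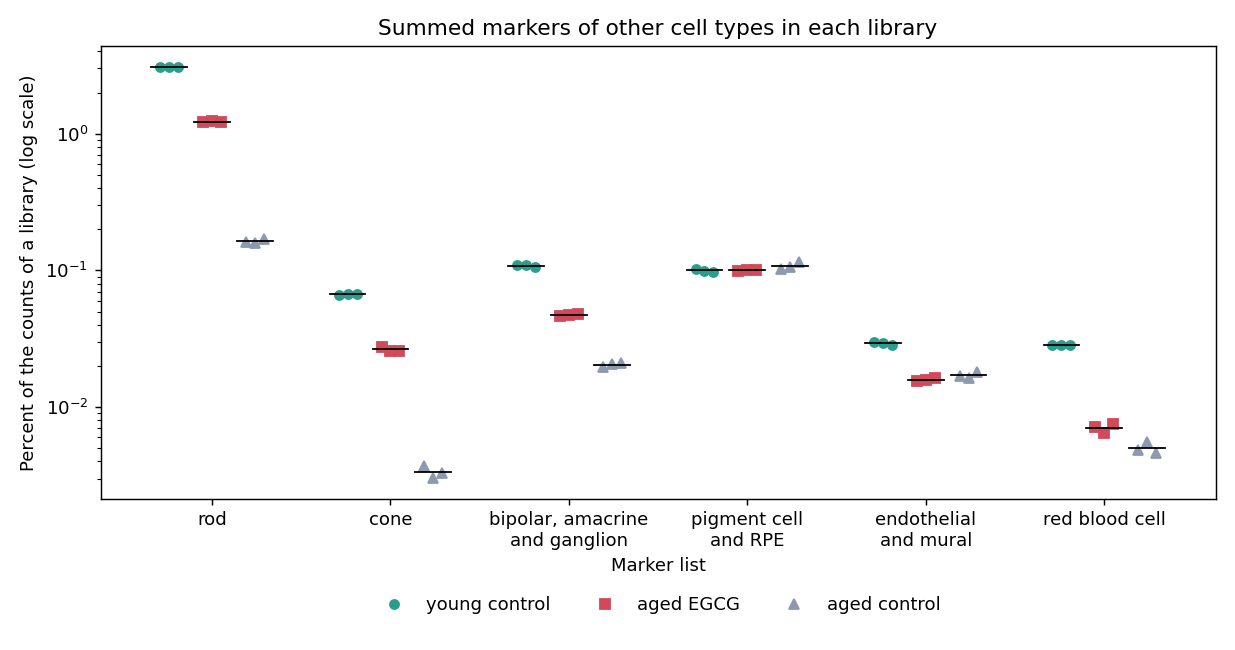
Share of the counts of a library (percent, log axis) taken by the summed markers of 6 other cell types, for each of the 9 libraries, with bars at group means. Rod markers take 3.07% to 3.10% in young control, 1.22% to 1.23% in EGCG and 0.159% to 0.171% in aged control libraries.

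Genes that stop the cell cycle were among the highest changes in EGCG. p53 is a transcription factor that is active after DNA damage and switches on inhibitors of the cell cycle and genes of cell death, and senescent cells keep such inhibitors on. Of 31 genes tested on the list of p53 targets and senescence, 20 were higher, 3 lower and 8 not called, with a median of 0.60. The shares over all genes tested were 32.3% higher and 31.4% lower. On the list, library size alone gave 17 higher, 6 lower and a median of 0.41, and removal of the length trend 19, 5 and 0.66. Cdkn1a, the cyclin-dependent kinase inhibitor p21 (chromosome 17, 29090976 to 29100727, plus strand), had 1.7, 1.75 and 1.28 CPM in young control and 91.9, 91.8 and 86.3 CPM in EGCG libraries. The EGCG libraries were all above the young control ones by a log2 fold change of 5.83 (5.59 to 6.07, adjusted p = 5.9e-37), or 56.9-fold. In aged control its mean was 85.3 CPM, and EGCG minus aged control was 0.08 (adjusted p = 0.5). The string CATG, 6 bases of any kind and CATG again has the layout of the cores of a p53 response element. It lies before 1 RefSeq start site of Cdkn1a on GRCm38.p6 and is absent from the window of another. The stretch with the string, at chr17:29090911-29090964 on the plus strand, is printed with each CATG in capitals.
Cdkn1a: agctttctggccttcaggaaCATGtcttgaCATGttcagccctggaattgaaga
This string reads the same on both strands and is in 0.712% of the 32851 promoter windows. Those windows are longer than the ones searched for TTTGTG and TATATA and run past the start site. Among 25 genes of the list with a promoter in the table it was found for 1, Cdkn1a, so its letters are not in the windows of the others. Other forms of a p53 response element, and places outside these windows, were not searched, so the others may hold such elements.

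Ccng1, cyclin G1, a p53 target (chromosome 11, 40748552 to 40755311), had 279, 276 and 278 CPM in young control and 2103, 2096 and 2202 CPM in EGCG libraries, a log2 fold change of 2.94 (2.85 to 3.03). The groups lay far apart, with all EGCG libraries high. Phlda3, an AKT inhibitor and p53 target, had 12, 13.5 and 12.2 CPM in young control and 125, 116 and 121 CPM in EGCG libraries, 9.62-fold higher. Cdkn2b, the inhibitor p15, had 4.04, 3.24 and 3.42 CPM in young control and 43.9, 42.4 and 43.1 CPM in EGCG libraries, 12.1-fold higher. The 3 lower members, chosen for naming after their values were seen, were Gadd45g (−0.93), the nuclear lamina gene Lmnb1 (−0.88) and Plk2 (−0.47, adjusted p = 0.049), the last of which missed the threshold in the fits without any 1 of the EGCG libraries, young control 2 or young control 3 (adjusted p between 0.0599 and 0.299). Aged control levels of the 4 genes that rose were 2075 CPM for Ccng1, 113 CPM for Phlda3, 49.2 CPM for Cdkn2b and 85.3 CPM for Cdkn1a, and none differed from EGCG at adjusted p under 0.05, which does not show that they were equal.

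Of 43 genes on the NRF2 and antioxidant list, 33 were higher in EGCG, 0 lower and 10 not called, with a median of 0.65. Library size alone gave 30, 3 and 0.46, and removal of the length trend 35, 3 and 0.50. The summed share of counts of the list was 0.697% to 0.699% in young control and 1.11% to 1.13% in EGCG libraries. In aged control libraries, without EGCG, it was 1.18% to 1.21%. NRF2 is the transcription factor that switches on enzymes against oxidants and reactive compounds. Aldh3a1, an aldehyde dehydrogenase (chromosome 11, 61207537 to 61218421), had 209, 217 and 212 CPM in young control and 814, 804 and 796 CPM in EGCG libraries, 3.78-fold higher with no overlap. Ephx1, microsomal epoxide hydrolase, had 31.2, 32.9 and 32.8 CPM against 167, 183 and 178 CPM, 5.46-fold higher with no overlap. Gss, glutathione synthetase, was 2.66-fold and Ftl1, ferritin light chain, 2.01-fold higher. Of 14 tested genes of catechin and xenobiotic metabolism, 4 were higher, 5 lower and 5 not called (2 and 6 by library size alone). These shares lay near the 32.3% higher and 31.4% lower of all genes tested. Among the lower genes of the list was Ahr, the receptor for aryl compounds (−2.80).

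**Figure D4:**
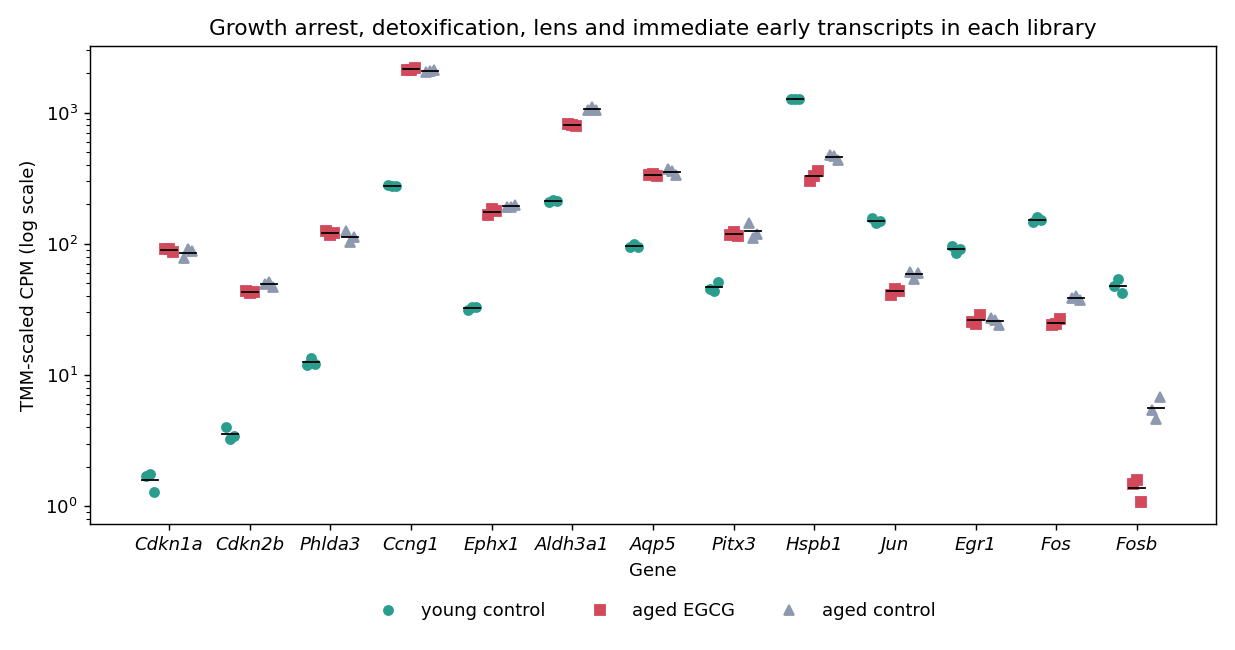
TMM-scaled CPM (log axis) of 13 genes in each of the 9 libraries, with bars at group means. EGCG libraries of Cdkn1a lie at 86.3 to 91.9 CPM and young control libraries at 1.28 to 1.75 CPM, and EGCG libraries of Fosb lie at 1.07 to 1.58 CPM and young control libraries at 42.3 to 53.5 CPM.

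Immediate early genes, which respond quickly to stimuli, were mostly lower in EGCG. Of 25 tested, 16 were lower and 6 higher (median −0.84, and −1.04 by library size alone), while rod markers, too, were lower in these EGCG libraries. Fos, a subunit of the AP-1 factor (chromosome 12, 85473890 to 85477273), had 146, 159 and 153 CPM in young control and 23.9, 24.3 and 26.6 CPM in EGCG libraries, 6.13-fold lower with no overlap. Fosb had 47.7, 53.5 and 42.3 CPM against 1.46, 1.58 and 1.07 CPM, 34.4-fold lower. Jun fell 3.45-fold and Egr1 3.48-fold. Fos and Fosb were also lower in EGCG than in aged control (EGCG minus aged control −0.64 and −2.00, with adjusted p-values of 7.3e-09 and 4.8e-10). Of 23 inflammatory genes tested, 7 were higher and 5 lower, against 6 and 6 by library size alone and 11 and 5 without the length trend. Neither share was above the 32.3% higher and 31.4% lower of all genes tested in the comparison as reported. Tnfaip3, which restrains NF-κB, fell 4.05-fold, and Serpina3n, an acute phase inhibitor of proteases, rose 2.18-fold from 12.6, 13 and 13.6 CPM to 26.3, 28.4 and 30.6 CPM. Of 25 complement and MHC class I genes, 10 were higher and 1 lower (8 and 4 by library size alone), with Clu, clusterin, up 1.57-fold and Nlrc5, which activates MHC class I genes, down 2.75-fold.

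Lens epithelium and lens fibre lists held members in both directions, as did all genes tested, with 32.3% higher and 31.4% lower. Of 22 lens epithelium genes, 11 were higher and 7 lower (median 0.34), against 11 and 9 by library size alone. Aqp5, a water channel, had 95.2, 99.7 and 95.3 CPM in young control and 337, 338 and 328 CPM in EGCG libraries, 3.46-fold higher with no overlap. Sfrp1 and Dkk3, secreted modulators of Wnt signalling, rose by 0.90 and 0.68, and Slc38a3, a glutamine transporter that retina also uses, fell by 1.48. Of 15 lens transcription factors, 9 were higher and 4 lower (median 0.37), with Pitx3, a factor needed for lens formation, at 45, 43.9 and 51.3 CPM against 116, 123 and 115 CPM, and Sox1 up by 0.91, Sox2 by 0.72 and Six3 by 0.62. Of 23 fibre membrane, cytoskeleton and denucleation genes, 13 were higher and 7 lower (median 0.25), but 11 and 10 by library size alone (median 0.06). Gja3, the connexin of fibre gap junctions, rose 2.23-fold and Cd24a, a surface glycoprotein, 1.99-fold. Dnase2b, the nuclease that removes fibre nuclei, fell 3.57-fold from 91.7, 87.7 and 86.7 CPM to 24.7, 24.6 and 25.2 CPM. Hspb1, a small heat shock protein that lens cells also express, had 1280, 1277 and 1271 CPM in young control and 300, 328 and 358 CPM in EGCG libraries, 3.88-fold lower.

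Capsule and basement membrane genes had a median length of 6583 bp, against 3722 bp for all genes tested, and their direction depended on how length was treated. Of 26 tested, 6 were higher and 12 lower (median −0.17), but 18 and 3 once the length trend was removed (median 0.29). Agrn, agrin, fell 2.85-fold from 61.6, 64.4 and 64.4 CPM to 25.2, 23 and 18.5 CPM. The collagen IV genes Col4a5 (−0.61), Col4a2 (−0.41) and Col4a6 (−0.51) were lower, and of these Col4a2 and Col4a6 missed the threshold with the trend removed. Of 30 genes of the TGF-β, EMT and fibrosis list, 10 were higher and 11 lower (median −0.07, and 0.22 once the length trend was removed). These shares lay near the 32.3% higher and 31.4% lower of all genes tested. Vim, vimentin, rose by 1.18 and Acta2, smooth muscle actin, by 0.84. Fn1, fibronectin, had 20.2, 22.3 and 19.5 CPM in young control and 3.15, 1.78 and 4.99 CPM in EGCG libraries, and Ccn1, a matrix protein of cell adhesion, fell by 1.45.

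Genes of the ribosome, the proteasome and oxidative phosphorylation were mostly higher, against 32.3% higher and 31.4% lower of all genes tested. Of 76 cytosolic ribosomal protein genes, 74 were higher and 1, Rpl41 (−0.17, but adjusted p = 0.0626 without EGCG 3), was lower, with a median of 0.70. Library size alone gave 68, 2 and 0.50, and removal of the length trend 72, 2 and 0.55. Rpl4 had 1071, 1059 and 1077 CPM in young control and 2942, 2775 and 2821 CPM in EGCG libraries, with no overlap. Of 34 proteasome subunits, 31 were higher and 0 lower (median 0.53), among them Psmc5 (1.08), whereas 25 and 1 were called by library size alone (median 0.33) and 26 and 0 once the length trend was removed (median 0.34). Of 69 nuclear genes of oxidative phosphorylation, 48 were higher and 4 lower (median 0.36), against 36 and 12 by library size alone (median 0.16) and 39 and 12 without the length trend (median 0.21). Of 42 autophagy and lysosome genes, 25 were higher and 4 lower (median 0.26), but 15 and 9 by library size alone (median 0.07) and 14 and 10 by limma on log2(FPKM + 1). Sqstm1, the autophagy receptor p62, was up 2.94-fold. Of 32 heat shock and unfolded protein response genes, 14 were higher and 10 lower, but 10 and 11 by library size alone. In the comparison as reported, the share lower lay close to the 31.4% of all genes tested.

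Of 38 genes for histone lysine methyltransferases and demethylases, 29 were lower, 4 higher and 5 not called (median −0.57). Over all genes tested, 31.4% were lower and 32.3% higher. Once the length trend was removed, 15 of the 38 were lower and 9 higher (median −0.08). Kmt2d, a methyltransferase of histone H3 (chromosome 15, 98831669 to 98871204), had 180, 178 and 178 CPM in young control and 39.7, 44 and 47 CPM in EGCG libraries, a log2 fold change of −2.04 (−2.18 to −1.90) with no overlap. Kmt2a (−1.78) and Kmt2c (−1.73), of the same family, were also lower. The fold change of a gene fell with its length. With genes in 10 bins by length, the median log2 fold change was 0.39 in the shortest bin (median length 1039 bp) and −0.60 in the longest (12409 bp), with a Spearman correlation of −0.358 across 13711 genes, which are not independent and share libraries. Among the 23 rod markers the same description gave −0.656, and it gave −0.544 for the histone lysine enzymes and −0.353 for the NRF2 list. For cytosolic ribosomal proteins it was 0.235 and for the p53 list 0.052, so the trend was not seen within every list. Guca1a, at 798 bp, changed by −0.38 and Rp1, at 12614 bp, by −2.51. Beyond the fit with the trend removed, the part of length in these changes was not tested.

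**Figure D5:**
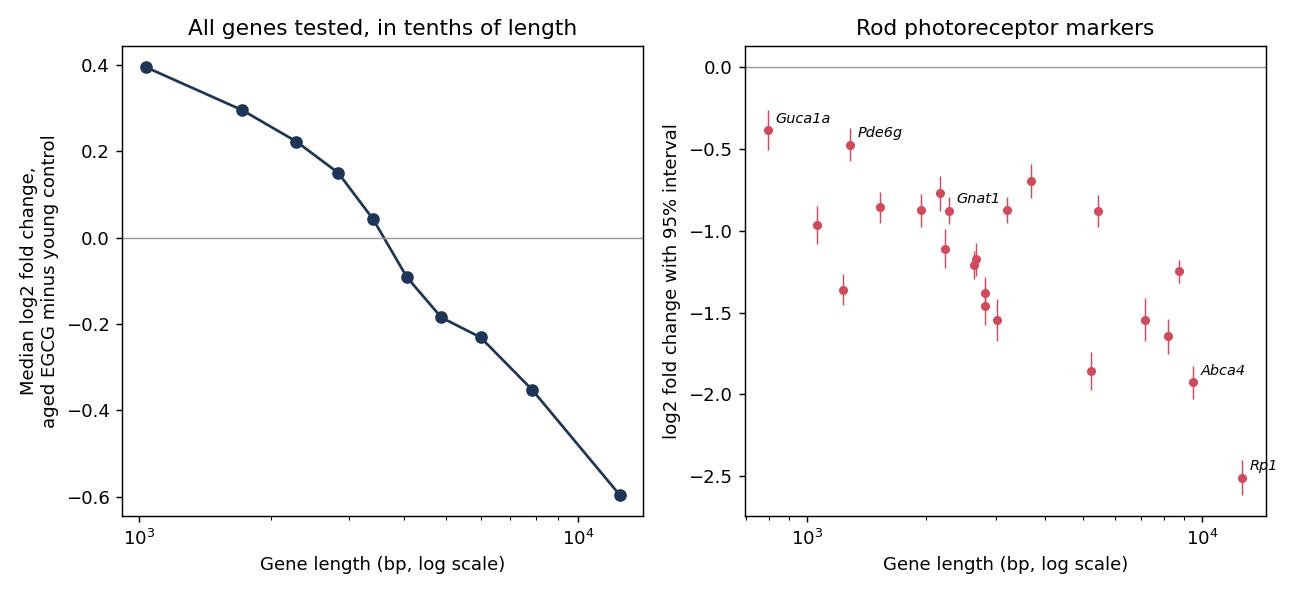
Left, median log2 fold change (aged EGCG minus young control) of all genes tested in 10 bins of gene length (log axis), from 0.39 in the shortest to −0.60 in the longest. Right, log2 fold change with 95% interval of 23 rod photoreceptor markers against gene length (log axis), with Guca1a at −0.38 and Rp1 at −2.51.

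RASSF2 and AKT signalling is named in the series title. RASSF2 is a Ras-binding adaptor and AKT kinases signal growth and survival from the insulin and IGF receptors. Of 40 genes on the list, 15 were higher, 13 lower and 12 not called (median −0.01), shares close to the 32.3% higher and 31.4% lower of all genes tested. The split was 11 and 18 by library size alone and 25 and 6 once the length trend was removed. Akt1 had 84.8, 93.4 and 90.7 CPM in young control and 129, 139 and 137 CPM in EGCG libraries, higher by 0.59 with no overlap, and Akt2 was higher by 0.66. Rassf2 was not called and had 29, 28 and 33 counts against 28, 20 and 19, an interval of −0.93 to 0.54 that includes 0. Akt1s1, an inhibitor of mTORC1, rose by 0.96, while Phlpp2, a phosphatase of AKT, fell by 2.02. Rictor, a subunit of mTORC2 (−1.24), and Igf1r, the IGF receptor (−0.81), were lower, the latter not past the threshold with the length trend removed.

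Outside these lists, genes with the smallest p included Pea15a (2.93-fold higher), a phosphoprotein of MAP kinase signalling, Serpinb6b (4.66-fold), a serine protease inhibitor, and Tinag (12.3-fold), a basement membrane protein. Tinag had 5.55, 4.86 and 6.29 CPM in young control and 71.1, 70.6 and 64.9 CPM in EGCG libraries. Gsn, an actin-severing protein, Dmpk, a kinase, the elongation factors Eef2 and Eef1a1, Srebf1, a factor of lipid synthesis, the ligand Wnt7b, Carhsp1, Basp1 and Nudc were also higher, with log2 fold changes from 1.09 to 2.10. The 12 lower genes were mostly of photoreceptors. They included Rgs9 (5.76-fold lower) and Rgs9bp, which end the light response, Rpgrip1 (9.21-fold), Rbp3, Grk1, Rp1l1 and Gucy2e, together with Pfkfb2, Pitpnm3, Syne2 and Tcp11. Tcp11 had 416, 422 and 413 CPM in young control and 77.8, 87.6 and 78.4 CPM in EGCG libraries, and its aged control mean of 121 CPM was higher than in EGCG (EGCG minus aged control −0.57, adjusted p = 2.7e-11).

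The remaining lists are given beside the 32.3% higher and 31.4% lower of all genes tested, and for most the split turned with the scaling. Of 27 glycolysis and hypoxia genes 11 were higher and 11 lower (9 and 15 by library size alone), with Hk2 down 2.37-fold and Egln1, an oxygen sensor, up 2.01-fold. Of 24 cholesterol biosynthesis genes 3 were higher and 8 lower (median −0.14), but 7 and 6 without the length trend (median 0.04). Of 40 cell cycle genes 4 were higher and 10 lower (median −0.24), but 7 and 6 without the length trend, and 4 and 5 of the 17 that passed a filter of at least 5 CPM in 3 libraries (median 0.09). Ccna2, cyclin A2, had 10.3, 14 and 12.7 CPM in young control and 3.73, 3.77 and 2.3 CPM in EGCG libraries, and Ccnd1, cyclin D1, rose 1.75-fold. Of 41 DNA repair genes 12 were higher and 13 lower, close to the shares over all genes, but 7 and 16 by library size alone and 16 and 6 without the length trend. Xpa, a damage recognition factor, rose by 1.52. Of 20 circadian clock genes 8 were higher and 7 lower, but 7 and 10 by library size alone and 10 and 1 without the length trend, with Dbp up by 1.05 and Rorb, which retina also expresses, down by 2.53. Of 25 osmolyte, glucose and ion transport genes 7 were higher and 11 lower (median −0.09), but 3 and 16 by library size alone and 13 and 10 without the length trend (median 0.23).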

How the data were processed

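Per the labels' protocols, anterior lens capsule RNA went into SMARTER mRNA libraries, and per the submitters' processing notes reads were placed on GRCm38 (mm10). The sources used here do not give the aligner, counter or strand setting. The authors deposited unnormalized counts per gene symbol and FPKM values, which equal counts divided by gene length and library total and gave the gene lengths used. Groups came from sample titles.

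Counts of all 9 libraries entered 1 fit of group means in edgeR 4.0.16 (R 4.3.3), with TMM factors and filterByExpr, and EGCG minus young control was tested two-sided with the quasi-likelihood test and Benjamini-Hochberg adjustment over 13711 genes. The biological coefficient of variation was 7.89%. A count of 3 equals 0.183 to 0.230 CPM in these libraries. Exact intervals of count ratios are Clopper-Pearson and cover counting error only. Alternatives were DESeq2 1.42.0, library size alone, scaling to lens fibre genes, a loess trend on length, other filters, limma 3.58.1 on log2(FPKM + 1) and log2(FPKM + 0.1), the 6 libraries alone, a replicate block and each library left out. Several of the fits were also run on simulated counts in which few genes changed, as many up as down. That setting is unlike these data and cannot check the scaling on which the split of higher and lower calls depended. Libraries of a group differed by more than counting noise (mean chi-square per gene 2.58 to 4.66), and none was treated as a duplicate. Separate libraries of the same RNA can also differ by more than counting noise, so this does not show separate animals.

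Members and lists were chosen with earlier results of these data known. Named are Rassf2, Akt1, Akt2, all γ-crystallins, 12 higher and 12 lower genes by smallest p (called, at least 2-fold, at least 5 CPM, no overlap, no predicted-gene name), the same outside the lists, and up to 4 called members of each list with the smallest p. A few genes that the rule names are not reported here. Vegfa, Dusp1, Vwf, Tg, Gadd45g, Lmnb1, Plk2, Rpl41 and Guca1a were chosen after their values were seen.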

Additional observations from a re-analysis of the deposited data

How the results depend on the processing

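The number of calls, 8725, stayed within 1.5-fold of that value under every alternative run, as did the numbers called higher and lower. The count of at least 2-fold changes was 1098 with limma on log2(FPKM + 1), against 2657 as reported. Higher genes of that size numbered 341 with library size only, 1029 with the length trend removed, 429 with at least 5 CPM in 3 libraries, 168 with log2(FPKM + 1) and 319 with log2(FPKM + 0.1), against 671, and lower ones 930 with log2(FPKM + 1), against 1986. Leaving out 1 library at a time gave 4120 to 4249 higher and 3889 to 4104 lower genes, 8009 to 8333 in all, of which at least 2-fold 674 to 694 and 1882 to 2004, 2560 to 2691 in all. Replicate numbers did not pair the groups (correlation of same-numbered deviations −0.003, −0.030 and −0.013), and the replicate block gave 8694 calls, 4406 higher and 4288 lower, with Plk2 no longer called (adjusted p = 0.0591). Rassf2 turned to 0.11 with the length trend removed. Crygs turned to −0.0890 with library size only, −0.11 with the length trend removed and −0.0889 with both limma settings. The cause was not tested. Of 2891 values of 181 named genes under alternatives, 2856 kept direction and side of the threshold. Most of these genes were named for a small p in the same counts, so this was largely set by that choice. It does not describe the other genes tested.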

Other observations

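The genes given here, chosen after their values were seen, lay outside the range of both control groups in EGCG. They are examples, and how many of all genes did so was not counted. Vegfa, the growth factor of blood vessels, had 73.6, 72.2 and 76 CPM in young control, 75.8, 69.8 and 75.4 CPM in aged control and 35.4, 37.4 and 37.5 CPM in EGCG libraries, which all lay below both control groups (edgeR adjusted p = 1.9e-16 against young and 1.3e-15 against aged control). Dusp1, a phosphatase of MAP kinases, had 97.8, 99.6 and 98.2 CPM in young control, 102, 101 and 92.2 CPM in aged control and 55.5, 54.9 and 54.5 CPM in EGCG libraries. Vwf, von Willebrand factor of endothelium, had 5.8, 6.17 and 6.11 CPM in young control, 8.74, 7.28 and 5.65 CPM in aged control and 0.659, 1.85 and 1.15 CPM in EGCG libraries. Tg, thyroglobulin, went the other way, with 1.7, 1.5 and 1.77 CPM in young control, 10, 12.6 and 10.3 CPM in aged control and 18.8, 15.2 and 15.7 CPM in EGCG libraries.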
